A study of Mus musculus with 2 samples.

Results

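Fibroblast growth factor (FGF) ligands, their receptors and the genes that cells switch on in response were followed in mesodermal cells of the mouse pharyngeal apparatus and heart. The set was chosen by symbol and holds 10 of the 27998 genes counted: the ligands Fgf8 and Fgf10, the receptors Fgfr1 and Fgfr2, the feedback inhibitors Spry1, Spry2, Spry4 and Dusp6, and the ETS transcription factors Etv4 and Etv5. All 10 were found in both libraries. Each library came from a pair of pooled Swiss Webster embryos at E9.5, sorted for GFP-positive, DAPI-negative cells, and each is 1 sample. In the library labelled Ctrl the embryos were Mesp1Cre;Rosa26-GFPflox/+, so that Cre made in Mesp1 lineage cells turned on GFP. In the library labelled cKO they were Mesp1Cre;Rosa26-GFPflox/+;Tbx1flox/flox, so that the same Cre also acted on both Tbx1 alleles, a T-box transcription factor gene needed in pharyngeal mesoderm. All embryos therefore carried Mesp1Cre and the GFP reporter, and no library without Cre was analysed here. By the study's sample table the cKO embryos had slightly more somites, so stage, embryo pair, library and genotype cannot be told apart.

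FGF ligands are secreted proteins that bind receptor tyrosine kinases together with heparan sulfate and activate the RAS-ERK cascade. The cascade induces the ETS factors Etv4 and Etv5 and also the Sprouty genes and Dusp6, whose products damp the cascade, so the RNA of these genes is widely read as a sign of FGF activity, although other receptor tyrosine kinases induce them too. Fgf8 and Fgf10 mark the second heart field and the pharyngeal mesoderm that builds the cardiac outflow tract. Their best known receptors there are Fgfr1 and Fgfr2.

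The deposited matrices held 132017331 UMIs in the library labelled Ctrl and 162874391 in the library labelled cKO. They held 7418 cells with a median of 16786 UMIs (unique molecular identifiers, each counting 1 captured RNA molecule) in the library labelled Ctrl, and 10281 cells with a median of 14341 in the library labelled cKO. After filtering, 6591 and 8969 cells were kept and fell into 27 clusters, of which 23 took the names of 13 populations from marker lists. Neither the 10 genes nor 84 other listed FGF pathway genes took part in the clustering. The populations most used below are MLP-like cells (multilineage progenitors of the cardiopharyngeal mesoderm, with 1008 and 1459 cells in the libraries labelled Ctrl and cKO), BrM-like cells (branchiomeric muscle progenitors, 529 and 713), SoM/aSHF-like cells (somatic mesoderm and anterior second heart field, 399 and 398), pSHF-like cells (posterior second heart field, 1078 and 1136), CM-like cells (cardiomyocytes, 273 and 466) and Endothelium-like cells (364 and 382). Tbx1, the targeted gene, stood at 54.9 CPM (UMIs of the gene per 1000000 UMIs of the population) in MLP-like cells of the library labelled Ctrl and at 112 in those of the library labelled cKO. Its highest level among named populations of the Ctrl library, 120, was in BrM-like cells, which held 94.6 in the cKO library, a log2 ratio of -0.35 (-0.47 to -0.23), and the share of these cells with a Tbx1 UMI, each thinned to 5000 UMIs, was 39.7% and 30.04%. Thus Tbx1 was higher in MLP-like and lower in BrM-like cells of the library labelled cKO. Since the kit reads the 3′ end of each RNA, these counts do not show whether the floxed part was present. Thus the libraries are called by their labels throughout.

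Levels are CPM, the summed UMIs of a gene per 1000000 UMIs of all genes in the population of that library. Intervals in brackets are exact 95% intervals of counting error only, and with 1 library per group no test between the groups was possible. A gene counted as measured in a population with at least 10 CPM in either library and at least 30 UMIs over both. Measured genes at least 2-fold apart are called lower or higher in the library labelled cKO. In MLP-like cells 4 of the 9 members measured were at least 2-fold lower, where 3.76% of all 7713 genes measured were. In BrM-like cells 6 of 10 were, against 4.24% of 7642 genes. No member was at least 2-fold higher in either population, where 0.817% and 1.39% of genes were. The counts were 2 of 7 in SoM/aSHF-like cells (background 1.64%), 1 of 5 in pSHF-like cells (0.618%), 1 of 6 in CM-like cells (1.45%) and 2 of 5 in Endothelium-like cells (1.78%). Fgf8, Fgf10 and Fgfr2 in MLP-like and BrM-like cells, and Spry4 in BrM-like cells, reached 10 CPM only in the library labelled Ctrl. So did every member called lower in the SoM/aSHF-like, pSHF-like, CM-like and Endothelium-like cells. A gene that passes only through that library cannot be called higher. The background was counted by the same rule but was not matched for level. The median log2 ratio over all genes measured lay between -0.12 and -0.08 in these 6 populations.

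**Figure D1:**
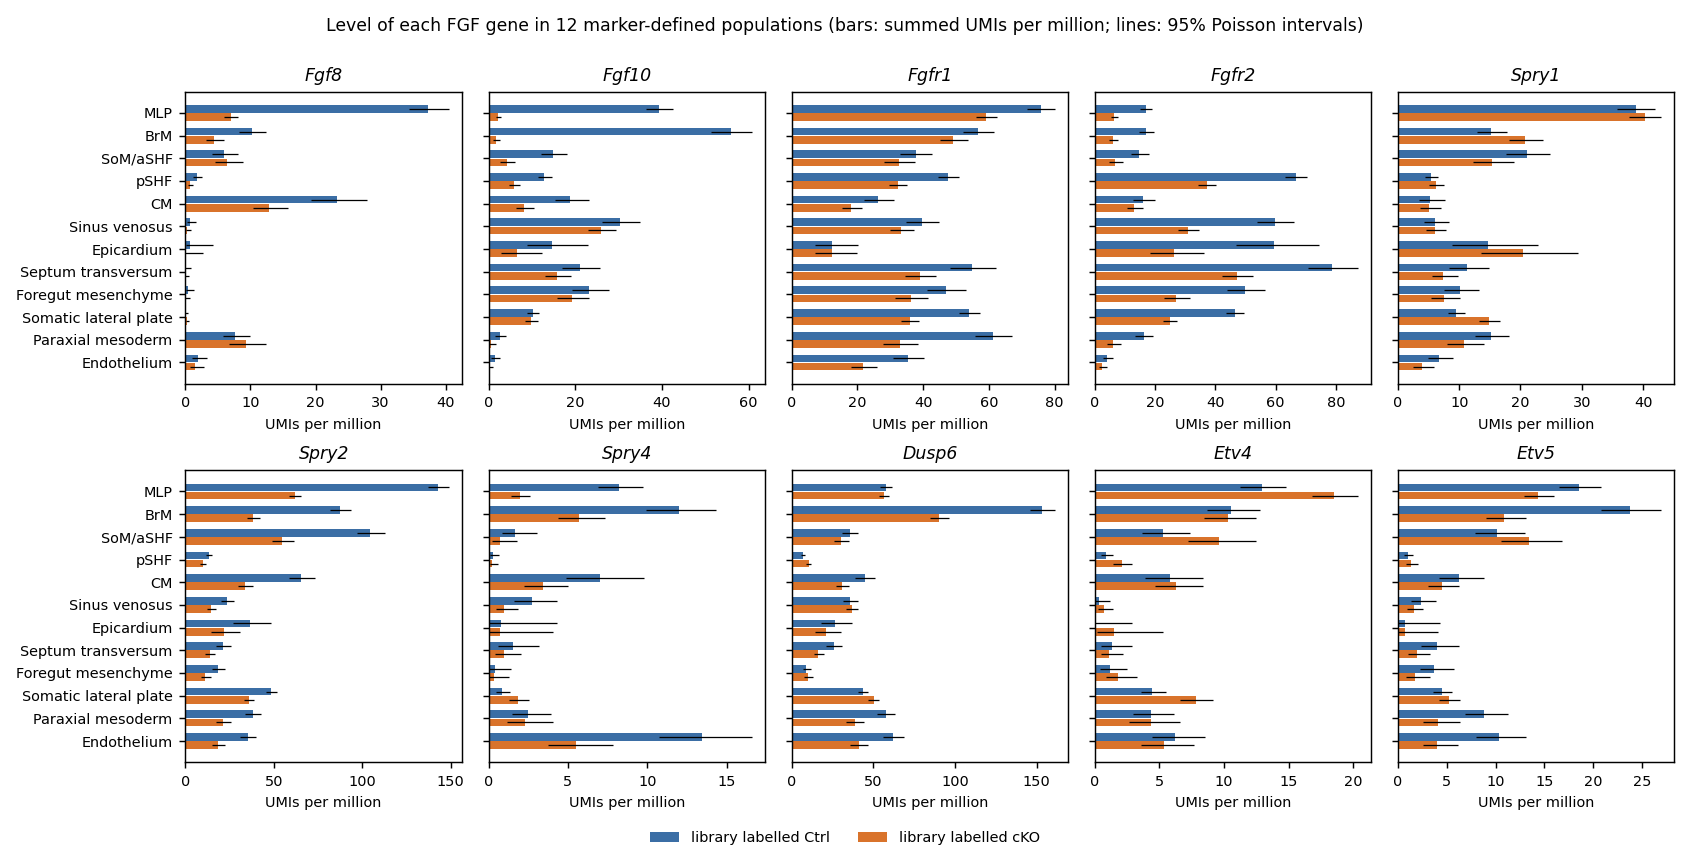
Level of each of the 10 FGF genes (x axis, CPM, linear and starting at 0) in 12 marker-defined populations (y axis) in the libraries labelled Ctrl (blue) and cKO (orange). Bars are summed CPM and black lines exact 95% Poisson intervals. Fgf8 and Fgf10 drop in MLP, from 37.4 to 6.95 and from 39.4 to 2.23, while Spry1 and Dusp6 stay close there.

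Fgf10, the ligand that signals from mesenchyme to Fgfr2-bearing cells and an often used marker of the second heart field, had the widest gap between the libraries among the members in MLP-like and BrM-like cells. The gene lies on chromosome 13 (GRCm38, 118714699 to 118792573). In the library labelled Ctrl its level was 55.9 CPM (51.4 to 60.8) in BrM-like cells and 39.4 (36.4 to 42.6) in MLP-like cells. It was, in the library labelled cKO, 1.69 (1.002 to 2.67) and 2.23 (1.66 to 2.93). The intervals did not overlap. The log2 ratio of cKO to Ctrl was -5.05 (-5.81 to -4.38) in BrM-like cells, from 561 and 18 UMIs, and -4.14 (-4.59 to -3.73) in MLP-like cells, from 634 and 51 UMIs. Every cluster of both populations showed it. In MLP-like cluster 4 there were 222 Fgf10 UMIs in the library labelled Ctrl against 2 in the other library, and the log2 ratio was -6.85 (-9.90 to -4.98). The MLP-like clusters 7 and 8 gave -3.56 and -3.96, and the BrM-like clusters 10 and 14 gave -5.13 and -4.96. With no filter on cells the ratio in MLP-like cells was -3.30, and with cells thinned to 5000 UMIs that in BrM-like cells was -4.30.

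Fgf10 was not low everywhere in the library labelled cKO. Sinus venosus-like cells, which build the inflow of the heart, held 30.4 CPM (26.3 to 35.1) in the library labelled Ctrl and 26.0 (22.9 to 29.3) in the library labelled cKO, with a log2 ratio of -0.23 (-0.50 to 0.05). Foregut mesenchyme-like cells held 23.2 and 19.2, and Somatic lateral plate-like cells 10.2 and 9.87, with intervals of the log2 ratio that included 0. Between these populations and the MLP-like cells stood the SoM/aSHF-like cells at 14.8 and 4.18 (log2 ratio -1.82, -2.54 to -1.17), the CM-like cells at 18.9 and 8.29 (-1.19, -1.67 to -0.71) and the pSHF-like cells at 12.9 and 5.93 (-1.12, -1.47 to -0.78). The ratio in CM-like cells was within 2-fold in Xist-positive cells, at -0.50 (-1.17 to 0.17), and with cells thinned to 5000 UMIs, at -0.37 (-1.31 to 0.60). That in pSHF-like cells was also within 2-fold in Xist-positive cells, at -0.90 (-1.40 to -0.41). The log2 ratio in MLP-like cells was lower than in Sinus venosus-like cells by a difference of -3.91 (approximate 95% interval -4.41 to -3.42, counting error only). Thus the order of populations changed: in the library labelled Ctrl Fgf10 was highest in BrM-like and then MLP-like cells, and in the library labelled cKO it was highest in Sinus venosus-like and Foregut mesenchyme-like cells, whose intervals overlapped. Among CM-like cells, Fgf10 stood at 35.7 and 11.6 in cluster 21 (led by Myh7, Tdgf1 and Ankrd1), at 36.3 and 19.1 in cluster 23 (led by Myl2, Myh7 and Nppa) and at 1.61 and 2.35 in cluster 17 (led by Myh6, Actc1 and Tnnc1). These clusters held 76, 56 and 141 cells of the library labelled Ctrl and 87, 98 and 281 of the library labelled cKO, so they made up different shares of the CM-like cells.

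The lower Fgf10 was seen in the share of cells as well as in the summed UMIs. With each cell thinned to 5000 UMIs, which left out at most 15 cells of a library in the MLP-like, BrM-like and Endothelium-like cells, 172 of 993 MLP-like cells of the library labelled Ctrl had an Fgf10 UMI, 17.3% (15.02 to 19.8), and 15 of 1446 in the library labelled cKO, 1.04% (0.582 to 1.71). In BrM-like cells the shares were 23.6% (20.01 to 27.4) and 1.41% (0.678 to 2.58). Endothelium-like cells, taken as the background for free RNA, gave 0.279% (0.00705 to 1.54) and 0.270% (0.00684 to 1.497), with median depths of 16529 and 13889 UMIs against 14553 and 14592 in MLP-like cells. The interval of the background overlapped those of the MLP-like and BrM-like cells in the library labelled cKO. Unthinned, the shares were 32.7% and 3.15% in MLP-like cells and 54.8% and 2.38% in BrM-like cells.

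Fgf8, a ligand needed for survival of pharyngeal mesoderm and for outflow tract growth, was more restricted. The gene lies on chromosome 19 (45736491 to 45742941). It was highest in MLP-like cells of the library labelled Ctrl, at 37.4 CPM (34.4 to 40.5), followed by CM-like cells at 23.3 (19.2 to 27.9) and BrM-like cells at 10.2 (8.29 to 12.3), with no overlap of neighbouring intervals. MLP-like cells of the library labelled cKO held 6.95 (5.91 to 8.11), with a log2 ratio of -2.43 (-2.69 to -2.17). There the CM-like cells had the highest level, 12.9 (10.5 to 15.7), whose interval overlapped that of the Paraxial mesoderm-like cells, and a log2 ratio of -0.85 (-1.26 to -0.45). In BrM-like cells the level was 4.41 and the log2 ratio -1.20 (-1.74 to -0.69). In SoM/aSHF-like cells it was 5.87 and 6.45, in Paraxial mesoderm-like cells 7.65 and 9.29, and both ratios had intervals that included 0. Within the CM-like cells, cluster 21 held 47.8 (36.7 to 61.2) in the library labelled Ctrl and 32.8 (24.2 to 43.4) in the library labelled cKO, so its intervals overlapped. Cluster 23 held 21.1 (13.7 to 31.1) and 8.48 (4.85 to 13.8), a ratio of -1.31 (-2.32 to -0.35), and cluster 17 held 11.3 (7.50 to 16.3) and 7.996 (5.54 to 11.2), a ratio of -0.50 (-1.26 to 0.28), and as given above these clusters made up different shares of the CM-like cells. The MLP-like clusters 4, 7 and 8 gave log2 ratios of -3.41, -2.42 and -1.997.

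The share of MLP-like cells with an Fgf8 UMI, after thinning, was 13.3% (11.2 to 15.6) in the library labelled Ctrl and 2.63% (1.87 to 3.59) in the library labelled cKO. Endothelium-like cells gave 0.836% (0.173 to 2.42) and 1.35% (0.440 to 3.13), and the latter interval overlapped that of MLP-like cells in the library labelled cKO. Both ligands occurred in the same cells at times: 46 of 993 MLP-like cells of the library labelled Ctrl had a UMI of each, and Fgf10 was found in 34.8% of the Fgf8-positive and 14.6% of the Fgf8-negative cells. Both were found in 2 of 1446 such cells of the library labelled cKO.

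**Figure D2:**
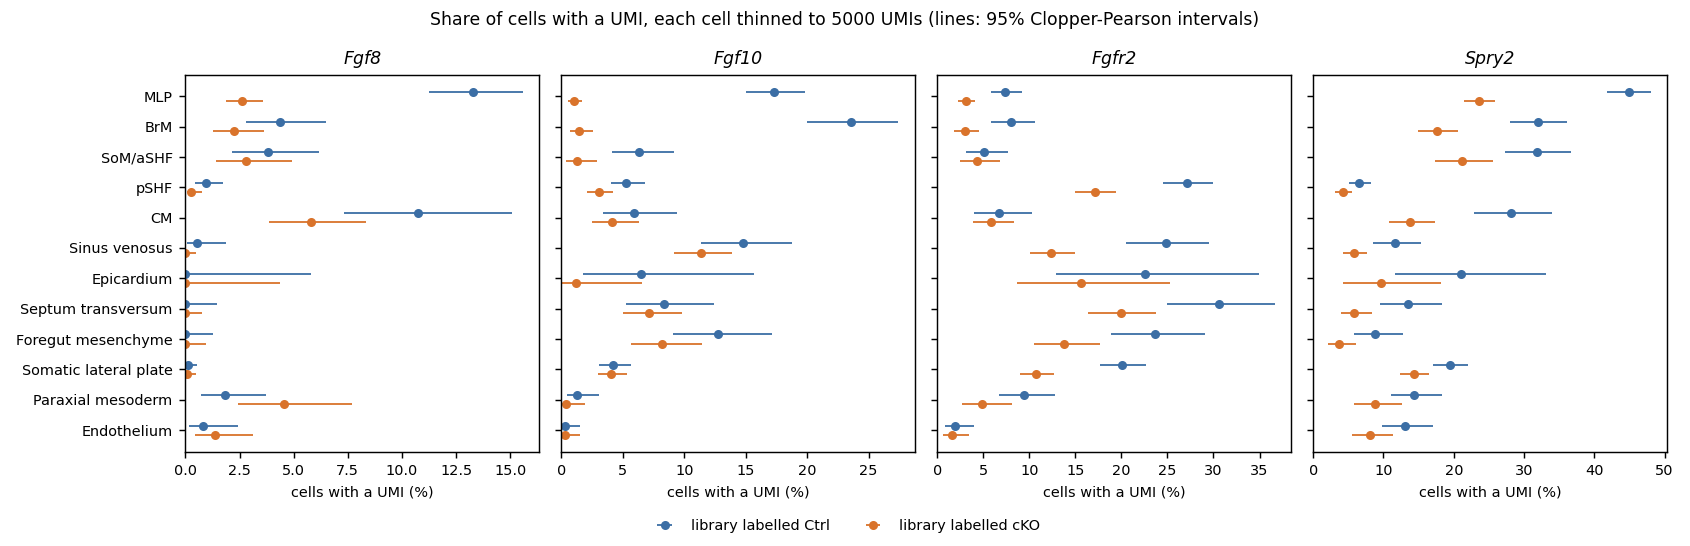
Share of cells with at least 1 UMI of Fgf8, Fgf10, Fgfr2 and Spry2 (x axis, percent) in 12 populations (y axis), each cell thinned to 5000 UMIs. Points are the libraries labelled Ctrl (blue) and cKO (orange) and lines 95% Clopper-Pearson intervals. Fgf10 drops from 17.3% to 1.04% in MLP and from 23.6% to 1.41% in BrM, while Fgfr2 and Spry2 are lower in cKO in all 12 populations.

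Fgfr1, a receptor widely expressed in mesoderm (chromosome 8, 25518759 to 25575718), was within 2-fold in every named population found in both libraries. Its level was 75.7 CPM (71.5 to 80.1) and 59.1 (56.0 to 62.3) in MLP-like cells, the population where it was highest in both libraries, though in the Ctrl library its interval overlapped that of unnamed cluster 13, and 56.6 and 49.2 in BrM-like cells. The log2 ratio was -0.36 (-0.47 to -0.24) and -0.20 (-0.38 to -0.03). Over the 12 named populations found in both libraries the ratio ran from -0.90 in Paraxial mesoderm-like cells to 0.00 in Epicardium-like cells with a median of -0.43. In CM-like cells the Fgfr1 ratio was past 2-fold in Y-positive cells, at -1.22 (-1.93 to -0.54), and -0.27 (-0.76 to 0.24) in Xist-positive cells.

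Fgfr2, the receptor for Fgf10 and other ligands made by mesenchyme (chromosome 7, 130162451 to 130266808), had a different distribution. It was highest in Septum transversum-like cells, at 78.7 CPM (70.8 to 87.3) and 47.1 (42.2 to 52.5), and in pSHF-like cells at 66.7 (63.1 to 70.5) and 37.3 (34.4 to 40.3). In MLP-like cells it stood at 17.0 (15.01 to 19.1) and 6.42 (5.43 to 7.55), and in BrM-like cells at 17.1 (14.6 to 19.8) and 6.01 (4.63 to 7.67). The log2 ratios were -1.40 (-1.70 to -1.11) and -1.505 (-1.94 to -1.08). All 12 populations had a ratio below 0, from -1.505 to -0.29 with a median of -0.92, and in 10 the interval lay below 0. The ratio in MLP-like cells differed from that in Sinus venosus-like cells by -0.46 (-0.82 to -0.10). Against Endothelium-like cells the difference was -0.58 (-1.58 to 0.42), an interval that included 0. Thus Fgfr2 was lower in the library labelled cKO across populations, those with and without high Fgf10.

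Spry2, a feedback inhibitor of receptor tyrosine kinase signalling (chromosome 14, 105891947 to 105896819), was also lower throughout. Its level in MLP-like cells was 143 CPM (137 to 149) in the library labelled Ctrl and 62.0 (58.8 to 65.3) in the library labelled cKO, from 2300 and 1420 UMIs, a log2 ratio of -1.20 (-1.30 to -1.11). BrM-like cells held 87.5 and 38.2 (-1.19, -1.37 to -1.02), and SoM/aSHF-like cells 105 and 54.9 (-0.93, -1.13 to -0.73). In all 12 populations the interval lay below 0, with ratios from -1.20 to -0.42 and a median of -0.79. Endothelium-like cells, at 35.3 and 18.2, gave -0.96 (-1.31 to -0.61), and the ratio in MLP-like cells differed from it by -0.25 (-0.60 to 0.11). Spry2 was found in 44.9% of thinned MLP-like cells of the library labelled Ctrl and 23.6% of those of the library labelled cKO. The shares were 49.5% and 24.1% in MLP-like cluster 4, 36.4% and 26.8% in cluster 7 and 46.3% and 19.6% in cluster 8.

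Fgf8, Fgf10, Fgfr2 and Spry2 were the members at least 2-fold lower in both MLP-like and BrM-like cells. Fgf8 in BrM-like cells was called so in 9 of 13 alternative settings, with ratios from -2.01 in Xist-positive cells to -0.90 in thinned cells, and Fgfr2 in MLP-like cells in 12, with -0.93 without a filter on cells. The 250 bases before the transcription start of Fgf10, Fgfr2 and Spry2 are shown, as given by RefSeq on GRCm38.p6. They are written 5′ to 3′ on the strand of the gene. No window was matched for Fgf8. The patterns of these genes over the populations differed, as given above, and shared control was not tested. Capitals mark GGAA or its reverse complement, the core letters of ETS binding sites, which 93.4% of all 32851 promoter windows of this length hold.
Fgf10, chr13:118714449-118714698, plus strand: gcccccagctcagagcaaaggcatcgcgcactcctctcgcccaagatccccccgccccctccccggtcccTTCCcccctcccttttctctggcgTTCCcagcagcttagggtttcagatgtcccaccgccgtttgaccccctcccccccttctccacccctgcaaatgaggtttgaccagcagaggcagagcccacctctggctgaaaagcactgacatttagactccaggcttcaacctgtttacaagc
Fgfr2, chr7:130266809-130267058, minus strand: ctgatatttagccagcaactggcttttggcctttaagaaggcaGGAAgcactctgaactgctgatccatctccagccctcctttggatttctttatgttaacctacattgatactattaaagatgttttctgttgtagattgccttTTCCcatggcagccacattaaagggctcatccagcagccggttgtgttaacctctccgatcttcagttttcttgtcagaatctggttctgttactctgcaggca
Spry2, chr14:105896820-105897069, minus strand: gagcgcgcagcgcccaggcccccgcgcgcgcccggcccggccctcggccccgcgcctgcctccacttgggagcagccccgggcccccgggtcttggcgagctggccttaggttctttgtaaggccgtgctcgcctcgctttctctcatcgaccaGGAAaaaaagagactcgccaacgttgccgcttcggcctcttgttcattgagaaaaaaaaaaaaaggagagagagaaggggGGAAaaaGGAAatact
The core occurred 2 times in the Fgf10 window, 2 times in that of Fgfr2 and 3 times in that of Spry2. The longer ETS word CCGGAAGT, searched on both strands, was in 2.88% of all windows, and the T-box word AGGTGTGA in 1.12%. Neither was found in the 7 windows of the 6 members matched in the table (Fgf10, Fgfr2, Spry1, Spry2, Dusp6 and Etv5), which says only that these letters are not in these windows.

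Spry1, a relative of Spry2 (chromosome 3, 37639947 to 37644599), did not follow it. In MLP-like cells its level was 38.8 CPM (35.8 to 41.9) and 40.3 (37.7 to 43.0), a log2 ratio of 0.05 (-0.09 to 0.20). In BrM-like cells it was 15.3 and 20.7, a ratio of 0.44 (0.14 to 0.75), which turned to -0.13 (-0.65 to 0.39) in Y-positive cells. SoM/aSHF-like cells gave -0.45 (-0.86 to -0.06) and Somatic lateral plate-like cells 0.65 (0.38 to 0.93). The levels were higher in unnamed cluster 3 (led by Crym, Fst and Ebf2), at 83.5 (76.6 to 90.9) and 54.8 (49.999 to 59.8). In unnamed cluster 13 (led by Cbr3, Lum and Tagln) Spry1 was at 60.1 (51.2 to 70.2) and 18.8 (15.5 to 22.6), a log2 ratio of -1.68 (-2.03 to -1.32). Clusters 3 and 13 held 386 and 159 cells of the library labelled Ctrl and 707 and 415 of the library labelled cKO.

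Spry4 (chromosome 18, 38586247 to 38601347) was sparse. MLP-like cells held 8.20 CPM (6.86 to 9.73) in the library labelled Ctrl, under the limit of 10 for a measured gene, and 1.97 (1.43 to 2.63) in the library labelled cKO. The log2 ratio was -2.06 (-2.58 to -1.56). It was measured in BrM-like cells, at 11.97 (9.92 to 14.3) and 5.73 (4.38 to 7.36), with a ratio of -1.06 (-1.53 to -0.61). Spry4 there was within 2-fold in Y-positive cells, at -0.71 (-1.51 to 0.07). The share of thinned cells with a Spry4 UMI was 7.62% and 1.34% in BrM-like cluster 10 and 5.36% and 4.18% in BrM-like cluster 14. It was also measured in Endothelium-like cells, where it was highest in the library labelled Ctrl with an interval that overlapped that of BrM-like cells, at 13.4 (10.7 to 16.6) and 5.51 (3.72 to 7.87), with -1.28 (-1.94 to -0.67). It was higher in Somatic lateral plate-like cells, at the low levels of 0.852 and 1.85 (1.12, 0.24 to 2.05), from 17 and 35 UMIs.

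Dusp6, the phosphatase that removes phosphate from ERK (chromosome 10, 99263231 to 99267489), differed by population. BrM-like cells were highest in both libraries, at 153 CPM (146 to 161) and 90.2 (84.6 to 96.1), a log2 ratio of -0.76 (-0.88 to -0.65). MLP-like cells held 57.6 (53.9 to 61.4) and 56.5 (53.4 to 59.6), a ratio of -0.03 (-0.15 to 0.10). The ratio in MLP-like cells exceeded that in BrM-like cells by 0.74 (0.57 to 0.91). Endothelium-like cells gave -0.60 (-0.84 to -0.36), CM-like cells -0.53 (-0.80 to -0.26) and pSHF-like cells, with the low levels of 6.89 and 10.3, 0.58 (0.25 to 0.92). The MLP-like value pooled clusters that differed: the ratio was -0.54 (-0.76 to -0.32) in cluster 4, 0.44 (0.21 to 0.68) in cluster 7 and 0.11 (-0.10 to 0.32) in cluster 8. These clusters held 445, 281 and 282 MLP-like cells of the Ctrl library and 488, 503 and 468 of the cKO library, so cluster 4 was a larger share in the former. Both BrM-like clusters were lower, with -0.72 and -0.85.

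The ETS factors Etv4 (chromosome 11, 101769747 to 101785310) and Etv5 (chromosome 16, 22381313 to 22439570) were highest in MLP-like and BrM-like cells of the library labelled Ctrl. In the library labelled cKO Etv5 stood at 14.4 in MLP-like, 13.4 in SoM/aSHF-like and 10.9 in BrM-like cells, and the intervals of neighbours in this order overlapped. Etv4 in MLP-like cells stood at 12.9 CPM (11.2 to 14.8) and 18.5 (16.8 to 20.4), a log2 ratio of 0.52 (0.28 to 0.77), and in BrM-like cells at 10.6 and 10.3, a ratio of -0.03 (-0.43 to 0.37). The MLP-like clusters 4, 7 and 8 gave 0.04 (-0.49 to 0.56), 0.52 (0.10 to 0.95) and 0.67 (0.29 to 1.07) for Etv4, and -1.36 (-1.93 to -0.82), -0.37 (-0.78 to 0.05) and 0.01 (-0.34 to 0.36) for Etv5. Etv5 in MLP-like cells stood at 18.5 (16.5 to 20.7) and 14.4 (12.9 to 16.0), a ratio of -0.37 (-0.60 to -0.13), and in BrM-like cells at 23.7 (20.8 to 26.9) and 10.9 (9.00 to 13.1), a ratio of -1.12 (-1.46 to -0.80). Etv5 was also lower in Endothelium-like cells, at 10.3 and 4.04 (-1.35, -2.12 to -0.63), a call kept in 9 of 13 alternative settings. The thinned share of these cells with an Etv5 UMI was 6.76% and 3.125% in cluster 15, but 0.730% and 2.74% in cluster 19. Etv4 was under 10 in every other population, and its ratios there included 1.23 (0.35 to 2.15) in pSHF-like cells, from 17 and 35 UMIs, and 0.81 (0.42 to 1.20) in Somatic lateral plate-like cells, from 89 and 148.

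For the 6 response genes Spry1, Spry2, Spry4, Dusp6, Etv4 and Etv5, whether measured or not, the median log2 ratio was -0.20 in MLP-like cells, with 4 of 6 below 0, beside -0.11 over all genes measured. In BrM-like cells it was -0.91, with 5 of 6 below 0, beside -0.12. The medians were -0.88 in Endothelium-like and -0.35 in SoM/aSHF-like cells, with 4 of the 6 measured in each, and -0.50 in CM-like and 0.34 in pSHF-like cells, with 2 of the 6 measured in each. The median in MLP-like cells joined Spry2 and Spry4, which were lower by 1.20 and 2.06 on the log2 scale, with Etv4, which was higher by 0.52. No list test was run.

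**Figure D3:**
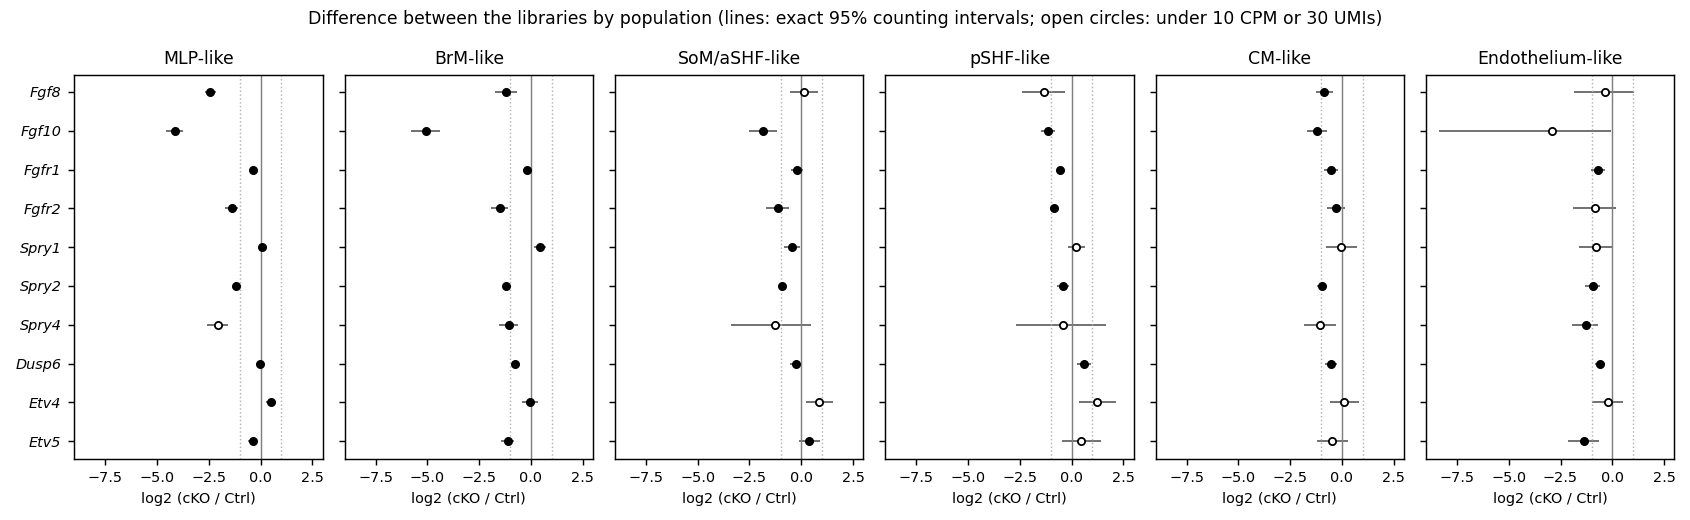
Log2 ratio of the library labelled cKO to that labelled Ctrl (x axis) for each of the 10 FGF genes (y axis) in 6 populations. Points are ratios of summed CPM, lines exact 95% counting intervals, dotted lines 2-fold, and open circles genes under 10 CPM or 30 UMIs. Fgf10 reaches -4.14 in MLP-like and -5.05 in BrM-like cells, and Fgf8 -2.43 in MLP-like cells, while Fgfr1 and Dusp6 lie within 2-fold in every panel.

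Each library held cells of both sexes, told apart by Xist and Y-linked UMIs, so the values could be given for different embryos of a pair. In MLP-like cells with Xist alone, Fgf10 stood at 39.7 and 1.996 CPM (log2 ratio -4.31, -5.01 to -3.69) and in those with Y-linked UMIs alone at 41.4 and 2.35 (-4.14, -4.87 to -3.48). Fgf8 gave -2.61 (-2.99 to -2.25) and -2.20 (-2.62 to -1.79), and Spry2 -1.27 and -1.21. In BrM-like cells Fgf10 gave -5.45 and -5.14. Fgf8 there gave -2.01 (-2.94 to -1.17) and -1.42 (-2.42 to -0.52), from 15 and 14 of the 47 UMIs of the library labelled cKO, the others lying in cells with both or neither. The Fgf8 ratio over all BrM-like cells, -1.20, lay above both, so it rested in part on those other cells. Dusp6 in BrM-like cells gave -0.96 (-1.11 to -0.80) and -0.33 (-0.54 to -0.13). Both were below 0, but the intervals did not overlap, so the size differed by more than counting error. The levels were 171 and 128 CPM in the library labelled Ctrl and 88.4 and 102 in the library labelled cKO. Spry1 in BrM-like cells gave 0.67 (0.25 to 1.09) and -0.13 (-0.65 to 0.39), so its sign was not the same in both. Cells of a sex are not replicates of the genotype, since all went through the same library.

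Of 84 other FGF pathway genes listed, 54 were measured in MLP-like cells, of which 8 were at least 2-fold lower and 1 higher, where the background was 3.76% lower and 0.817% higher. With the members there were 12 lower, and this count was 7 with doublets kept, 6 with no filter on cells and 2 at a limit of 50 CPM, while the 1 higher was lost with doublets kept, with no filter on cells and in Xist-positive cells. Of 20 other ligands listed, 2 were measured, Fgf1 and Fgf9, both just past the limit and only through the library labelled Ctrl. Fgf9 had 185 UMIs in the library labelled Ctrl (11.5 CPM) and 8 in the library labelled cKO (0.349), so the log2 ratio was -5.04 (-6.27 to -4.03). Fgf1 had 174 UMIs (10.8) and 2 (0.0874), which is 124-fold lower with a counting interval from 33.8-fold to 1030-fold. In BrM-like cells Fgf9 was under the limit of a measured gene, with 88 and 2 UMIs (named after its values were seen). The feedback genes lower in MLP-like cells were Dusp14 (a dual-specificity phosphatase, -2.07), Flrt2 (a membrane protein of a family that binds FGF receptors, -1.34), Il17rd (the FGF antagonist Sef, -1.32) and Spred2 (an inhibitor of RAS-ERK signalling, -1.06). Spsb1 (-1.60) and Plk2 (-1.24), listed as ERK targets, were lower, and Phlda1, also listed there, was higher at 77.5 and 161 CPM (1.06, 0.96 to 1.15). None of the 19 measured genes of the signal cascade, nor of the 14 measured heparan sulfate genes, was 2-fold apart in MLP-like cells.

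In BrM-like cells 50 of the 84 were measured, with 5 lower and 2 higher, against backgrounds of 4.24% and 1.39%. With the members there were 11 lower, of which 4 were left at a limit of 50 CPM, as was 1 of the 2 higher. Dusp14 was at 23.8 and 3.66 CPM (-2.70, -3.23 to -2.21). Map2k1, which encodes the ERK kinase MEK1, was at 152 and 47.6 (-1.67, -1.82 to -1.53). Hs6st2 (-1.36) and Glce (-1.30), enzymes that modify heparan sulfate, and Il17rd (-1.32) were also lower. Shisa2, which retains FGF receptors inside the cell, was higher at 31.3 and 92.8 (1.57, 1.38 to 1.75), and Myc, a growth gene, at 16.4 and 40.2 (1.30, 1.03 to 1.57). Dusp14 and Il17rd were lower in both populations.

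**Figure D4:**
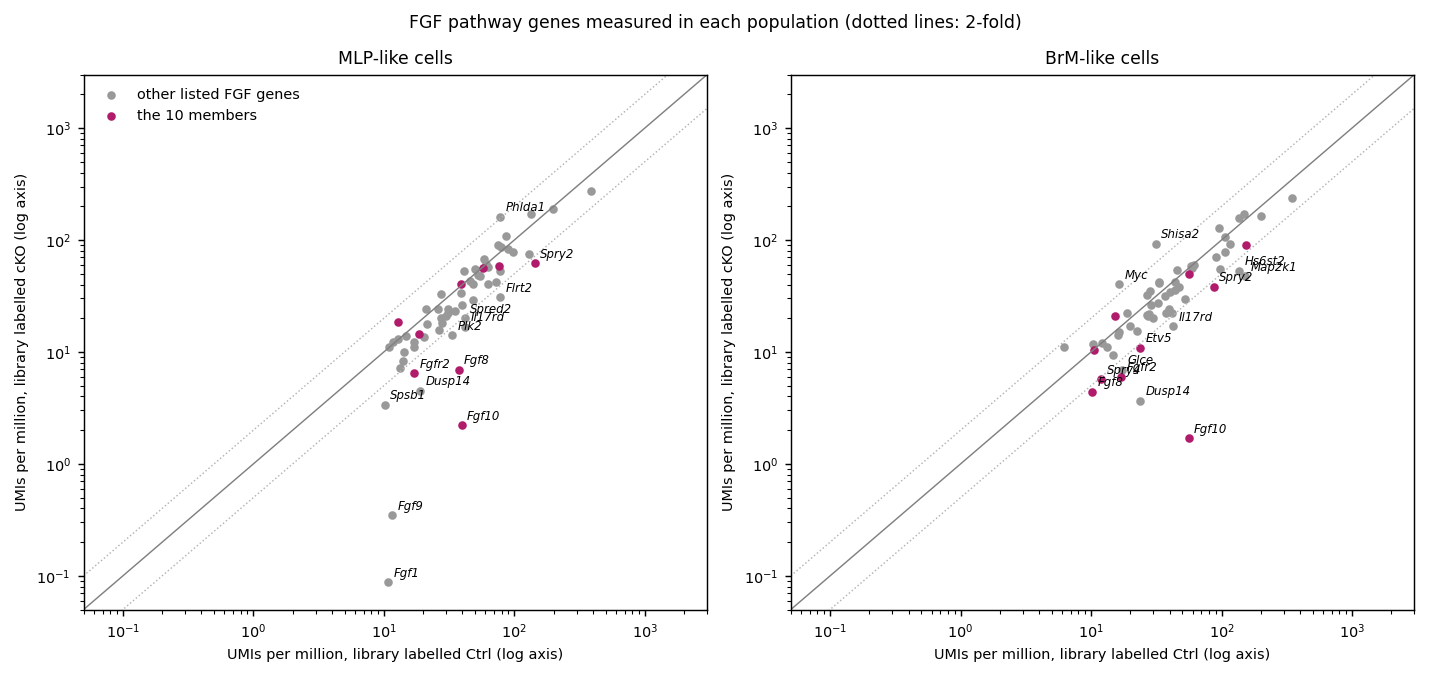
CPM of the measured FGF pathway genes in the library labelled Ctrl (x axis, log scale) and labelled cKO (y axis, log scale) in MLP-like and BrM-like cells. Magenta points are the 10 members, grey points other listed genes, the solid line equality and dotted lines 2-fold, and genes past 2-fold are named. Fgf1, Fgf9, Fgf10 and Fgf8 lie furthest below the line in MLP-like cells, and Fgf10 and Dusp14 in BrM-like cells.

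Over the named populations of both libraries, 25 points in all that share libraries and depth, the members followed different genes. As descriptions across these points, on the scale of log2 of CPM plus 5, Etv4 and Etv5 were each other's nearest gene among all genes considered (Pearson r = 0.88), followed by Sall1 for both and then Frzb for Etv4 and Tlx1 for Etv5. Fgf8 was closest to Npm3 (0.81), 2010300C02Rik and Pcsk6, and Fgf10 to Inpp4a (0.82), Rnf5 and Abr. Fgfr1 was closest to Stag1, Dcaf8 and Sox11 (all 0.92), Fgfr2 to Pdzrn3 (0.91), Frs2, an adaptor of FGF receptors, and Bicc1, and Dusp6 to Nrp2 (0.83), Sh3bp5 and Uqcc3. Spry2 was closest to Amot (0.87), Bach2 and Scmh1, Spry1 to Rad50 (0.71), Frzb and Palm3, and Spry4 to Gng11 (0.88), Cd40 and RP23-198F11.3. Among the members, the closest pairs after Etv4 with Etv5 were Spry2 with Etv5 (0.80), Spry2 with Dusp6 (0.76) and Spry4 with Dusp6 (0.75). Fgf8 went most with Spry2 (0.70), Etv5 (0.68) and Etv4 (0.67), and Fgf10 most with Fgfr2 (0.66). Fgf8 and Fgf10 went hardly with each other (0.12).

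Epithelial markers, of cells that the sort should leave out, were also counted. The summed level of 8 epithelial markers was 56.4 and 81.9 CPM in MLP-like cells, mostly Krt18 and Krt8, and 30.4 and 28.4 in BrM-like cells, with Esrp1 at 0 in both populations of the library labelled cKO. It was also higher over all kept cells, at 107 and 153, and in SoM/aSHF-like (335 and 535), pSHF-like (105 and 167) and CM-like cells (276 and 450), where Krt8 or Krt18 was the most abundant and Cldn6 was at 0 in at least 1 library. Cdh1, Cldn6, Cldn7 and Esrp1 were all at 0 in BrM-like cells of the library labelled cKO and in SoM/aSHF-like cells of the library labelled Ctrl. Since Krt8 and Krt18 alone can raise the sum, it does not show that epithelial cells were present. Epithelium also makes Fgf8 and other ligands, and the part of such cells in the ligand levels was not tested. Of the barcodes, 15 occurred in both libraries.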

How the data were processed

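Gene counts of 2 libraries were analysed, 1 labelled Ctrl and 1 labelled cKO. The counts were deposited by the authors as raw UMI counts per gene and cell barcode, made with Cell Ranger 3.1.0 on mm10 per the labels, for called cells and without normalization. Cells with at least 1000 genes and at most 10% mitochondrial UMIs were kept (411 and 508 left out), and the highest Scrublet scores (scanpy 1.11.5) were removed as doublets at 0.8% per 1000 cells (416 and 804). Cells were clustered in Seurat 5.3.0 (2000 variable genes, 30 dimensions, reciprocal PCA integration, resolution 1). FGF pathway genes, 17 genes taken from the study's text, and technical and sex-linked genes, 250 in all, were kept out, and a second pass left out 1500 further genes at least 2-fold apart between the libraries within a provisional class. A cluster was named when over 50% of a marker list, and at least 3 markers, were in 10% of its cells and 0.5 above the other clusters in log2(CPM + 5), with a marker among its top 10 genes. These naming limits were set after the clusters were seen. The members, gene lists and markers were chosen with earlier results of these data known. Counts were summed per library and population, and intervals are exact (Poisson, conditional binomial for ratios, Clopper-Pearson for shares, approximate normal for differences of ratios), covering counting error only. The 10 members were described in every main population. Of the other listed genes, up to 10 per population were named in MLP-like and BrM-like cells by size among those past 2-fold, and the genes most like each member by Pearson correlation. Functions were tested on simulated data. Coordinates are from RefSeq GRCm38.p6. The result of 1 further marker list is not reported here.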

Additional observations from a re-analysis of the deposited data

Results flagged for a closer look

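Spry1 and Dusp6 had log2 ratios of cKO to Ctrl on opposite sides of 0 in different populations, with counting intervals clear of 0 on each side in the main setting. For Spry1 the values were 0.44 in BrM-like cells, -0.45 in SoM/aSHF-like cells and -0.80 in Endothelium-like cells. The value in BrM-like cells turned to -0.13 (-0.65 to 0.39) in Y-positive cells, that in SoM/aSHF-like cells was -0.01 (-0.32 to 0.29) without integration, and that in Endothelium-like cells was -1.39 in Xist-positive and -0.14 in Y-positive cells, so the opposite signs of Spry1 did not hold in every setting. For Dusp6 they were 0.58 in pSHF-like cells, -0.76 in BrM-like cells, -0.53 in CM-like cells and -0.60 in Endothelium-like cells, and each kept its sign in 13 of 13 alternatives. With 1 library per group the difference between populations was not tested across samples.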

How the results depend on the processing

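No paired analysis was possible because each group has 1 library, and no replicate could be left out for the same reason. The 60 log2 ratios of 10 members in 6 populations were recomputed under 13 alternatives. Of the 16 past 2-fold, 16 kept their sign in every alternative and 7 stayed past 2-fold in all. A call is also lost where the gene is no longer measured. Of the others, the call was kept in 12 of 13 for Fgfr2 in MLP-like cells and Fgf10 in SoM/aSHF-like cells, in 11 for Spry4 and Etv5 in BrM-like cells and Fgf10 in pSHF-like and CM-like cells, and in 9 for Fgf8 in BrM-like cells, Fgfr2 in SoM/aSHF-like cells (-0.36 in thinned cells) and Etv5 in Endothelium-like cells. The MLP-like population held 1008 and 1459 cells, and 629 and 833 in the first clustering pass, 723 and 984 without integration and 740 and 1011 with all variable genes in the clustering. The Fgf8 ratio in MLP-like cells moved from -2.43 to -2.71 with all variable genes in the clustering, -2.03 with doublets kept and -2.15 with no cell filter. Fgf10 in MLP-like cells moved from -4.14 to -4.66 in the first clustering pass, -4.71 with all variable genes, -3.71 with doublets kept and -3.30 with no cell filter, and in BrM-like cells from -5.05 to -4.30 with cells thinned to 5000 UMIs. The median of the response genes in BrM-like cells moved from -0.91 to -0.52 in Y-positive cells. The number of pathway genes, members included, at least 2-fold lower in MLP-like cells was 12, and 7 with doublets kept, 6 with no cell filter and 2 at a limit of 50 CPM. Those higher numbered 1, and 0 with doublets kept, with no cell filter and in Xist-positive cells. In BrM-like cells 11 were lower, and 4 at that limit, and 2 higher, and 1 at that limit. At that limit fewer genes are measured, and the cause of the other moves was not tested. Fgf8 in Endothelium-like cells rested on 12 and 8 UMIs and Spry4 in pSHF-like cells on 6 and 4, and a difference was not detectable there at this depth. Spry1 in BrM-like cells, not past 2-fold, changed sign in Y-positive cells (-0.13).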
